A study of Mus musculus with 2 samples.

Results

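The intestinal claudin and adherens junction genes examined here were Cldn2, Cldn3, Cldn4, Cldn7, Cldn15, Ocln, Tjp1, Cdh1, Cdh17 and Epcam, 10 of the 22367 protein-coding genes of the annotation. They were listed by their role in cell junctions, a rule that uses no measured value, although the list was drawn up with earlier results of these data known. Peaks within 1 kb of any annotated start site of a gene were called its start site peaks, and all other peaks in the gene body or within 20 kb on either side were called distal. By this rule the genes held 66 of the 90445 peaks of control enteroids, of which 11 were start site and 55 distal peaks. They held the same numbers, 66 with 11 and 55, among the 71282 peaks of Taf4-inactivated enteroids.

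ATAC-seq was used to measure chromatin accessibility: a transposase places adapters preferentially in open DNA, so that a peak marks a stretch of open chromatin. Enteroids are epithelial cultures, grown here from crypts of the ileum of mice of 4 months on a C57Bl6/129sv background. The comparison concerns chromatin after loss of Taf4, one of the TBP-associated factors that make up TFIID, the complex that binds core promoters. Control enteroids, labelled WT, were Taf4 lox/lox without Cre according to the methods of the study. Taf4-inactivated enteroids, labelled KO, were Taf4 lox/lox::VilCreERT2, in which the Villin promoter drives a tamoxifen-inducible Cre in intestinal epithelial cells. Cultures of both genotypes received 1 µM 4-hydroxytamoxifen (4-OHT) for 3 days, so the agent was common to both. There was 1 library per genotype, and every difference below therefore describes 2 libraries, with no replicate check and no test.

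Neighbouring epithelial cells are joined near their apical side by tight junctions, which limit what passes between the cells, and just below by adherens junctions, which hold the cells together. Claudins span the membrane and form the strands of the tight junction, some as a barrier and some as pores for ions or water, while occludin lies in the same strands and ZO-1 ties them to actin. Cadherins bind the same protein on the neighbouring cell, and E-cadherin is linked through catenins to the cytoskeleton.

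The fold of a peak is its enrichment over the background of its own library, and it is therefore given together with its percentile among all peaks of the same list. A second quantity, the pileup, was solved from the fold and p of a peak and is expressed as a multiple of the lowest background of the library. The control library had a lowest background of 12.1 reads and the Taf4-inactivated one of 7.35 reads, a ratio of 1.65, and the median fold over all peaks was 2.03 and 2.45. The depth of the libraries in reads was not measured, and this ratio is no direct measure of it. In bulk chromatin, a change in every cell and a change in the share of cells with an open site cannot be told apart. The Taf4 gene itself, annotated as Taf4a, ranked at the 74.7th percentile in control and the 58.7th in Taf4-inactivated enteroids at its start site, which is no check of the deletion. Of 6 markers of intestinal epithelium, 4 carried start site peaks in either library, and Krt20 and Fabp2 did so in the Taf4-inactivated library alone. Among 5 leukocyte markers 0 carried one in either list, whereas 3 of 5 fibroblast markers and Kdr, 1 of 5 endothelial markers, carried one in each, and Pecam1 of endothelium carried one in control alone. In rank these differed by −57.1 points for Kdr, −41.0 for Pdgfra, −22.7 for Col1a2 and 7.36 for Col1a1, and by pileup rank all 4 were lower after Taf4 inactivation. The part of such cells in the differences below was not tested.

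The DNA just upstream of 5 start sites is shown because these promoters run from GC-rich to AT-rich. Each stretch ends at or shortly before the coding start site nearest to its peak, leaves out annotated exons and is written in the direction of transcription, from the mm9 genome. Capitals mark letters of the recognition sequences named in the next paragraph.
Cdh1, chr8:109127079-109127250, plus strand: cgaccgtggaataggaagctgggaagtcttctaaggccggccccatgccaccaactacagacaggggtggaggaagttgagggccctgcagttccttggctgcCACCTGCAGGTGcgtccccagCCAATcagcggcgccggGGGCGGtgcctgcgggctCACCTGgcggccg
Cldn4, chr5:135422805-135423004, minus strand: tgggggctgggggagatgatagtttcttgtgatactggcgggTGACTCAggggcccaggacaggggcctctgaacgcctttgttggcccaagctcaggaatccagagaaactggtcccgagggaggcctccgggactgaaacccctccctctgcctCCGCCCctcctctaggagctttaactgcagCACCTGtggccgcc
Epcam, chr17:88035119-88035318, plus strand: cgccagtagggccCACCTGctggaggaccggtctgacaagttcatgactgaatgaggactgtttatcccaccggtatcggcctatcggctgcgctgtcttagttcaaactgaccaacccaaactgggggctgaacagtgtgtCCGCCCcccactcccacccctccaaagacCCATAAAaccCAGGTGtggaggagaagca
Cdh17, chr4:11685094-11685293, plus strand: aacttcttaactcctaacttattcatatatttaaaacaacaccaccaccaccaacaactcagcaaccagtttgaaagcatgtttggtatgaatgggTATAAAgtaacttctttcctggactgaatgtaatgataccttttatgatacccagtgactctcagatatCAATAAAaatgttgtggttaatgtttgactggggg
Cldn2, chrX:136340420-136340619, plus strand: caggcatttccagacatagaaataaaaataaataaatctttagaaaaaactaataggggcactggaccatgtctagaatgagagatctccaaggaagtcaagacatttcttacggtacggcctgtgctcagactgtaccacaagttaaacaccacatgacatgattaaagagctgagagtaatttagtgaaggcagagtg

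In windows from 250 bases before to 50 bases after the start site, the median GC content was 61.5% over the junction genes and 57.0% over 22359 coding genes. The ratio of observed to expected CpG ranged from 0 in Cdh17 and 0.138 in Cldn2 to 1.02 in Tjp1, against a median of 0.588 over all windows. Cdh17 and Cldn2, the AT-rich pair among the sequences above, also had the lowest pileup at their start sites in control enteroids. Recognition sequences were searched on both strands for the TATA box (TATAAA), the GC box (GGGCGG), the CCAAT box (its name spells it), the E-box (CACCTG) and AP-1 (TGANTCA). The others were the letters of HNF4 (CAAAGTCCA), of grainyhead-like factors, or GRHL (CCGGTT), of GATA factors (GATAAG), of CDX factors (TTTATNG) and of HNF1 (GTTAATNAT). The TATA box and CDX letters can overlap, and so can others by a few bases. The E-box CACCTG, known as a binding site of Snail and ZEB repressors, was present in 7 of the 10 windows, namely those of Cldn2, Cldn3, Cldn4, Cldn7, Ocln, Cdh1 and Epcam, and in 19.9% of all coding windows. In the Cdh1 sequence above its matches lie at bases −97 to −92, −91 to −86 and −41 to −36, counted from the start site as +1. The GC box was found in 7 windows (46.7% of all), the CCAAT box in 3 (36.7%) and the GRHL letters in 3, Cldn3, Cldn7 and Ocln (7.93%). CDX letters occurred in Cdh17 and Epcam (9.58% of all), an AP-1 match in Cldn4 (6.54%) and a TATA box in Cdh17 at bases −104 to −99 (12.7%). HNF4, GATA and HNF1 letters were not present in these windows and occurred in 0.496%, 6.43% and 0.657% of all. A match describes letters in a window and not binding.

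A start site peak was present at all 10 junction genes in each library, and at 68.4% (control) and 65.6% (Taf4-inactivated) of coding genes. In 9 genes the start site peaks of highest fold overlapped between the lists. In Cldn15 these did not, although other start site peaks of the gene did. The share of coding genes with such an overlap is not given here. The start site peak ranked higher in its list after Taf4 inactivation for 3 of the 10 genes, Cldn2, Cldn7 and Cdh1, a share near the 34.2% of coding genes with a peak in both lists. The median difference in percentile, Taf4-inactivated minus control, was −5.14 points over the junction genes and −2.77 points over 14014 coding genes, whose quartiles were −10.6 and 2.36. A difference of at least 25 points upward was found for 1 gene, Cldn2, against 5.93% of coding genes, and one of at least 25 points downward for 0, against 9.08%. The median percentile of the junction genes was 85.9 in control and 74.4 in Taf4-inactivated enteroids, beside 88.2 and 82.6 over coding genes. Ranked by pileup in place of fold, 5 of the 10 genes were higher, beside 37.6% of coding genes, and the median difference was 0.77 points, beside −1.42 over coding genes.

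**Figure D1:**
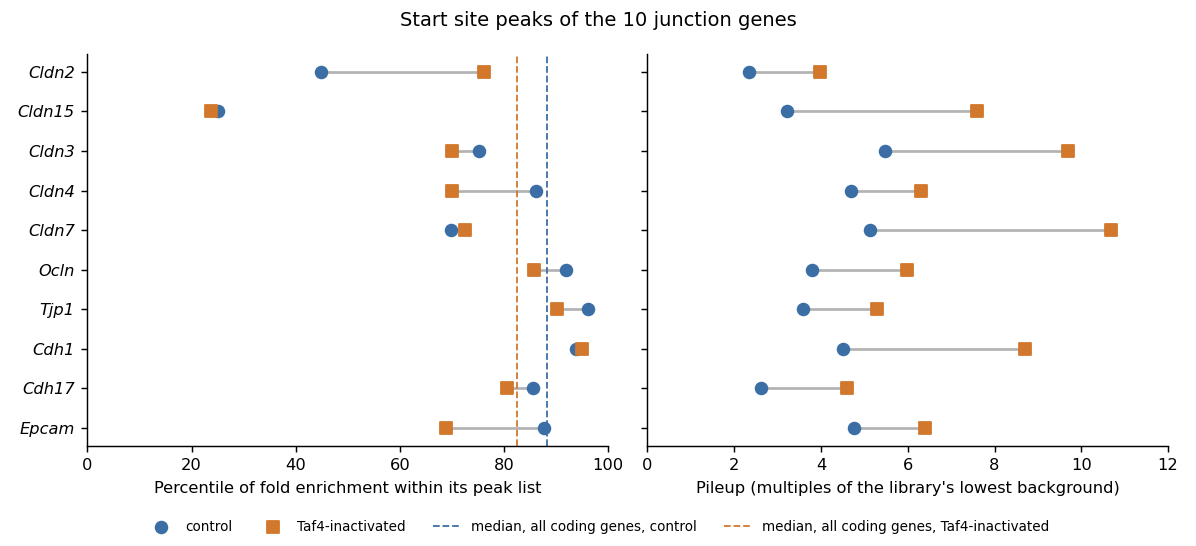
Start site peaks of the 10 junction genes in the control (circles) and Taf4-inactivated library (squares), 1 library each. Left, percentile of the fold among all peaks of the same list, with dashed lines at the medians over coding genes, 88.2 and 82.6; right, pileup as a multiple of the lowest background of the library. Cldn2 moved from the 44.9th to the 76.1st percentile. The pileup was higher in the Taf4-inactivated library for all 10 genes, where the median ratio over coding genes was 1.57 with quartiles of 1.32 and 1.77. The 2 values of Cldn15 come from peaks that do not overlap.

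Cldn2 (ENSMUSG00000047230.6, chrX:136335367-136345925, plus strand) encodes a claudin that forms pores for cations and water, and in the gut it is best known from crypts. Its start site peak, by the most downstream of 3 annotated starts, had a fold of 2.0 and stood at the 44.9th percentile in control, and a fold of 3.00 at the 76.1st percentile in Taf4-inactivated enteroids. This was a difference of 31.2 points, the largest among the junction genes, and the pileup was 2.33 and 3.97. The control peak was weak, with a −log10 q of 1.81 against 5.24 in the Taf4-inactivated list, and was lost at a threshold of 2. The peaks themselves were short and overlapped only in part. The control peak, chrX:136340712-136341021, began 92 bp beyond the start site, while the Taf4-inactivated peak, chrX:136340514-136340812, covered it, and 101 bp were common. The most upstream start of Cldn2 had no peak within reach, the nearest being 2369 bp away in the control list and 5147 bp away in the other.

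Cldn15 (ENSMUSG00000001739.7, chr5:137442486-137451728, plus strand) encodes a cation pore of the small intestine and had the lowest ranked start site peaks, at the 25.1st percentile in control and the 23.8th in Taf4-inactivated enteroids. These are different places, with 0 bp in common, so the difference of −1.31 points compares no single element. The control peak, chr5:137450592-137450804, lay 768 bp from the start of a non-coding transcript, whereas the Taf4-inactivated peak, chr5:137441057-137441963, lay upstream of the coding starts. The control list had 1 peak of 2665 bp over both coding starts, at the 2.01st percentile, and the Taf4-inactivated list had a pair of peaks of 907 and 792 bp beside them, at the 23.8th and 0.0912th percentiles. The control peak of 2665 bp overlapped both peaks of this pair. With coding starts alone the difference was 21.8 points upward.

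Cldn3 (ENSMUSG00000070473.2, chr5:135462084-135463342, plus strand), Cldn4 (ENSMUSG00000047501.2, chr5:135420996-135422804, minus strand) and Cldn7 (ENSMUSG00000018569.6, chr11:69778281-69781387, plus strand) encode claudins counted as barrier forming. Cldn3 and Cldn4 are neighbours on chromosome 5, transcribed away from each other. The Cldn3 peak had folds of 2.23 and 2.81, at the 75.3rd and 69.9th percentiles in control and Taf4-inactivated enteroids. The Cldn4 peak had folds of 2.43 and 2.82 and ranked 16.1 points lower after inactivation, at 86.2 against 70.1. Cldn4 and Epcam, at −16.1 and −18.8 points, were the genes with the largest downward differences. The Cldn7 peak ranked nearly alike, at 69.9 and 72.6, but its pileup went from 5.13 to 10.7, a ratio of 2.08 that was below only that of Cldn15, 2.36. Cldn7 and Cldn3 had the highest pileups of the 10 genes in both libraries, with Cldn3 at 5.47 and 9.68. Fold is taken over the local background, which at Cldn3 was 2.41 and 3.35 times the lowest background of the library. The Cldn7 peak spanned all 5 annotated starts in control, and 2 of them in Taf4-inactivated enteroids, where it began 302 bp downstream of the next.

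Ocln (ENSMUSG00000021638.6, chr13:101266462-101322673, minus strand) encodes occludin and Tjp1 (ENSMUSG00000030516.8, chr7:72441051-72516125, minus strand) the adaptor ZO-1, and both had strong start site peaks in both lists. Ocln stood at the 91.9th percentile in control and the 85.7th in Taf4-inactivated enteroids, with folds of 2.67 and 3.41. Tjp1 stood at the 96.1st and 90.2nd percentiles, with folds of 3.00 and 3.70. Both peaks had nearly the same edges in the 2 libraries, 1745 and 1740 bp wide at Ocln and 1162 and 1253 bp at Tjp1. The 2 starts of non-coding Tjp1 transcripts inside the gene had no peak within 6438 bp.

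Cdh1 (ENSMUSG00000000303.6, chr8:109127251-109194146, plus strand) encodes E-cadherin and had the highest ranked start site peak among the junction genes in the Taf4-inactivated list. Its folds were 2.79 and 4.16, at the 93.8th and 95th percentiles, and its pileup was 4.51 and 8.69. Cdh17 (ENSMUSG00000028217.5, chr4:11685294-11745042, plus strand) encodes the liver-intestine cadherin of enterocytes, and its peak, over the AT-rich promoter shown above, ranked at 85.5 and 80.6. Its pileup was 2.62 and 4.59, and by pileup rank it stood 16.6 points higher after Taf4 inactivation. Epcam (ENSMUSG00000045394.8, chr17:88035319-88050446, plus strand) encodes a cell adhesion molecule that binds and stabilizes claudin-7. Its start site peak was almost identical in position, 1660 and 1680 bp wide, and its fold of 2.48 in control and 2.78 in Taf4-inactivated enteroids corresponded to the 87.6th and 68.8th percentiles. The pileup of the 9 genes whose peaks overlapped was 1.34 to 2.08 times as high in the Taf4-inactivated as in the control library, with a median of 1.70, while the median over coding genes was 1.57 with quartiles of 1.32 and 1.77.

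The 55 distal peaks of each list lay mostly in introns and between genes. In control enteroids 18 were intronic and 23 intergenic, and in Taf4-inactivated enteroids 19 and 23. A distal peak without a partner, that is with no overlap of even 1 bp with a peak of the other list, was less frequent around the junction genes than over coding genes at large in control, and the interval held the share over coding genes in the Taf4-inactivated list. In control 14 of 55 had no partner, or 25.5% with an exact 95% interval of 14.7% to 39.0% for counting error, and 53.3% did over the distal peaks of all coding genes. In Taf4-inactivated enteroids 15 of 55 had none, or 27.3% (16.1% to 41.0%), beside 40.5% over all coding genes. Distal peaks of the junction genes also ranked higher, with a median percentile of 59.9 in control and 71.8 in Taf4-inactivated enteroids against 45.8 and 48.4 over all coding genes. Peaks without a partner ranked lower than the others in both lists, with medians of 37.9 against 63.3 in control and 43.9 against 76.8 in Taf4-inactivated enteroids. The shares depend on the q threshold. When a −log10 q of at least 5 was required in both lists, 13 control and 32 Taf4-inactivated distal peaks were left, of which 7.69% and 62.5% had no partner, beside 8.96% and 58.0% over all coding genes. With fewer control than Taf4-inactivated peaks left, the second share depends in part on the lengths of the lists. Compared with all peaks of the other list, 1 of the 13 and 3 of the 32 had no partner, or 7.69% and 9.38%, beside 1.22% and 13.0% over all coding genes.

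**Figure D2:**
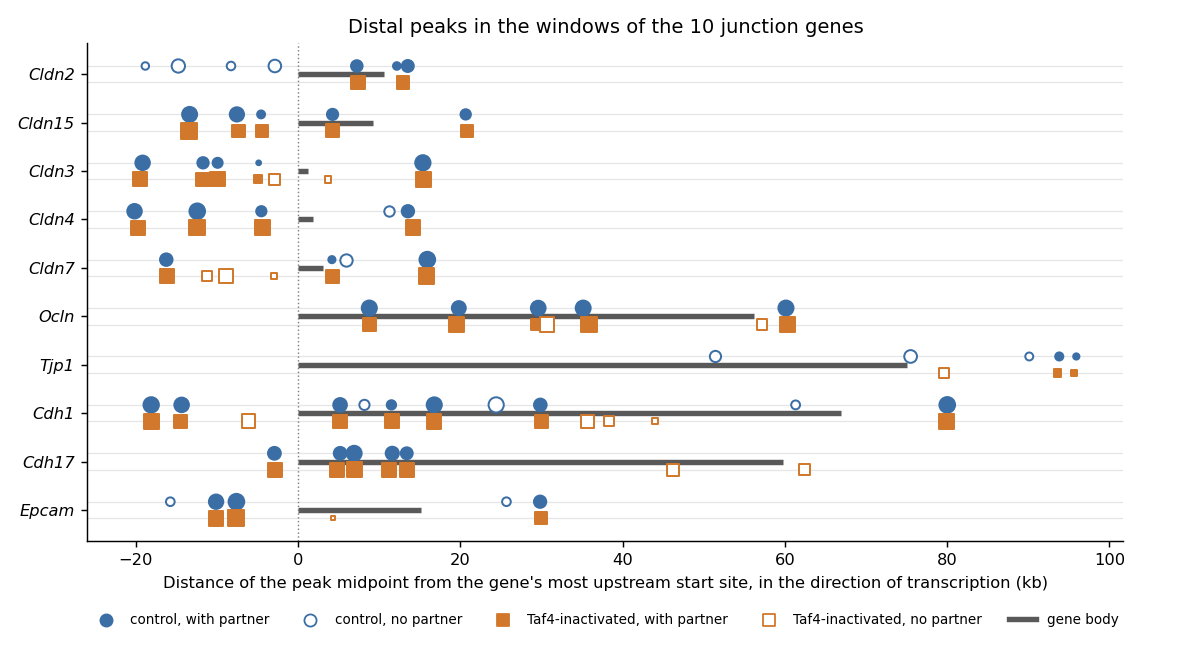
Distal peaks around the 10 junction genes by distance of the peak midpoint from the most upstream start site, in kb along the direction of transcription. Circles stand for control and squares for Taf4-inactivated peaks, filled where the other list has an overlapping peak and open where it has none (14 control and 15 Taf4-inactivated peaks), larger symbols stand for a higher percentile of fold, and bars for gene bodies. The peak shared by the Cldn3 and Cldn4 windows is drawn in both rows, and the 4 open circles upstream of Cldn2 have no counterpart.

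The genes differed in which library held more distal peaks. Cldn2 had 7 in control and 2 in Taf4-inactivated enteroids, and 4 of the control peaks, all upstream of the gene, had no partner. The strongest of these, chrX:136320445-136320809, stood at the 69.1st percentile, and another, chrX:136332046-136332998, at the 60.7th. The summed length of open chromatin in the Cldn2 window was 3982 bp in control and 2037 bp after Taf4 inactivation, a ratio of 0.512 that was the lowest among the junction genes. Cldn2, whose start site differed most upward in rank, also had the most control distal peaks without a partner. Its 4 of 7 stand beside 53.3% of distal control peaks over all coding genes. These 4 peaks had a −log10 q of 1.24 to 2.23, and one of them lay 33 bp from a start of Ripply1. Over all junction genes the open length was 56566 and 49030 bp, a ratio of 0.867, and over all peaks of the lists the ratio of covered length was 0.724. Tjp1 had 5 distal peaks in control and 3 in Taf4-inactivated enteroids, none of them above the 62.1st percentile, and 3 and 1 had no partner. Epcam had 5 and 4, and Cldn4 had 5 and 4.

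More distal peaks in the Taf4-inactivated list were found for 5 genes. Cldn7 had 4 in control and 6 in Taf4-inactivated enteroids, Cldn3 had 5 and 7, Ocln 5 and 7, Cdh17 5 and 7, and Cdh1 10 and 11. Each control distal peak of Cldn3, Ocln, Cdh17 and Cldn15 had a partner. Cldn15 had 5 distal peaks in each list, all of them paired, and 3 of the 5 lay within 1 kb of the start site of a neighbouring gene. Such neighbours account for 11 of the 55 distal control peaks and 10 of the 55 Taf4-inactivated ones. Over all coding genes, leaving out such peaks kept 50087 of 61431 distal peaks in control and 38482 of 48483 in Taf4-inactivated enteroids.

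Distal elements that ranked near the top in both lists are shown, together with elements that differed most between the lists. Each line gives the central 200 bases of the peak on the plus strand of mm9, all of them in introns or between genes, with matches to the recognition sequences above in capitals.
Cldn4, upstream, high in both lists, chr5:135435125-135435324: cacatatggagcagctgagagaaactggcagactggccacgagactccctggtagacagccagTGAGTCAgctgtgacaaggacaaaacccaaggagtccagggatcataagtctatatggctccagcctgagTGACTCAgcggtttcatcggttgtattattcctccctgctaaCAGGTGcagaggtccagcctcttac
Epcam, upstream, high in both lists, chr17:88027637-88027836: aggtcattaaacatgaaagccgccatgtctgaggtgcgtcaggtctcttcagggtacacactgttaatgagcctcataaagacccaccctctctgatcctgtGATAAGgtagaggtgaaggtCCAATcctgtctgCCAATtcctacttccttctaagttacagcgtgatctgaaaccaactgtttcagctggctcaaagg
Cldn4, upstream, higher rank after Taf4 inactivation, chr5:135427107-135427306: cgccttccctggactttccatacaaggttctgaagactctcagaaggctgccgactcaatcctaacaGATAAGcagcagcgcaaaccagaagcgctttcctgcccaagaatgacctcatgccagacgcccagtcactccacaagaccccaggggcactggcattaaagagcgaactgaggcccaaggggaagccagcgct
Cdh1, intron, higher rank after Taf4 inactivation, chr8:109138700-109138899: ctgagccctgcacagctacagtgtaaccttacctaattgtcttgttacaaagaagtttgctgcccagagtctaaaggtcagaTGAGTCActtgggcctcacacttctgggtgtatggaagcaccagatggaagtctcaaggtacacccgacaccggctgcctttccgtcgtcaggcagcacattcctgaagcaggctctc
Cdh1, intron, control list alone, chr8:109151579-109151778: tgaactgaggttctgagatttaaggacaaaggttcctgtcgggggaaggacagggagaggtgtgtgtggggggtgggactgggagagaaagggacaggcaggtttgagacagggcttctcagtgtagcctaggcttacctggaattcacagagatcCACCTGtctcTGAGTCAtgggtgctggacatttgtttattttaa

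The first of these elements lay between Cldn4 and Cldn3, with its midpoint at −12421 bp from the start of Cldn4. It stood at the 97.7th percentile in control and the 98.2nd in Taf4-inactivated enteroids, with folds of 3.22 and 4.73, above the start site peaks of both genes. It holds 2 AP-1 matches, TGAGTCA and TGACTCA, and the E-box. The Epcam element, at −7582 bp, stood at the 98.9th and 96.1st percentiles and holds 1 GATA and 2 CCAAT matches. Another strong intergenic element, upstream of Cdh1 at −18086 bp in the control list, stood at the 95.2nd and 97.3rd percentiles. In Ocln an intronic element ranked at 89.9 in control and 96.7 in Taf4-inactivated enteroids, and in Cdh17 one ranked at 90.3 and 85.2. Other top ranked peaks in the windows belonged to starts of neighbouring genes, such as Tmco7 in the window of Cdh1 (99.0 and 97.9) and Fis1 in that of Cldn15 (89.8 and 97.9). Of the distal peaks in the top 10% of their list, 10 of 11 in control and 8 of 8 in Taf4-inactivated enteroids had a partner. These shares were not computed over all coding genes. By a different cut, a −log10 q of at least 5, 1.22% and 13.0% of distal peaks of all coding genes had no partner in the whole other list. That cut holds 13 and 32 junction gene peaks, so its shares are no direct background for these counts.

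The only junction gene peak in the top 10% without a partner was the Cdh1 intron peak chr8:109151539-109151820, printed last above. It had a fold of 2.72 at the 92.8th percentile and a −log10 q of 5.56 in control, and no peak of the Taf4-inactivated list overlapped it. The strongest distal peaks found in the Taf4-inactivated list alone stood lower, with one upstream of Cldn7, chr11:69769267-69769612, at the 81.4th percentile and one in an Ocln intron, chr13:101291739-101292295, at the 78.9th. Next came a peak upstream of Cdh1, chr8:109121021-109121296, at the 73.9th percentile, one in a Cdh1 intron at the 66.4th and one in a Cdh17 intron at the 53.2nd. The Ocln peak lay within 500 bp of a control peak, chr13:101292404-101293721, at the 85.9th percentile. When a gap of up to 500 bp was allowed, 14 of 55 Taf4-inactivated peaks had no partner. The remaining control peaks without a partner among the highest were one downstream of Tjp1 at the 62.1st percentile and one over an exon of Rai12 in the Cldn7 window at the 58.2nd.

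The distal peaks that overlapped each other best formed 40 pairs, 31 of them with at least 50% of both peaks in common. In 24 pairs the peak ranked higher in the Taf4-inactivated list and in 16 lower, with a median difference of 5.33 points. Over 28372 pairs of all coding genes 44.4% ranked higher, with a median of −1.69 points. By pileup rank 24 of the 40 pairs were again higher, but the median difference was 1.66 points, beside 37.9% and −3.31 points over all coding genes. The pileup of the pairs was 1.07 to 2.35 times as high in the Taf4-inactivated library, with a median of 1.59 against 1.34 over all coding genes. At the start sites of the same genes 3 of 10 ranked higher, and the difference between both shares was not tested. The largest upward difference, 50.4 points, belonged to a peak in the Cldn7 window over a coding exon of Rai12, 218 bp from an annotated start of that gene. It was followed by the Cldn4 element at −4403 bp printed above, with 50.1 points, from the 37.6th to the 87.7th percentile and from a pileup of 3.22 to 7.38. The Cdh1 intron element with an AP-1 match differed by 49.4 points, 29.7 against 79.1, with a pileup of 3.03 and 6.51. By pileup rank these 3 differences were 3.41, 13.6 and 14.6 points. Among genes with pairs mostly upward, the 5 pairs of Cdh17 differed by −5.06, 4.27, 10.1, 13.1 and 28.9 points, the last over a coding exon of the gene. All 3 intergenic pairs of the Cldn3 window upstream of its start, apart from the one shared with Cldn4, ranked higher, by 18.1, 19.8 and 44.98 points. By pileup rank they differed by 14.45, −2.88 and 16.0 points. In Tjp1 both pairs, downstream of the gene, ranked lower, by −0.88 and −4.74 points. Downward the largest differences were −39.5 points at an Ocln intron peak, −21.1 points at a peak upstream of Cdh1 and −18.8 points at a peak in an intron of Fis1 near Cldn15. By pileup rank they were −10.6, 1.15 and −7.33 points, so the Cdh1 pair reversed. The Ocln pair compares a control peak of 1318 bp with a Taf4-inactivated peak of 272 bp inside it.

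**Figure D3:**
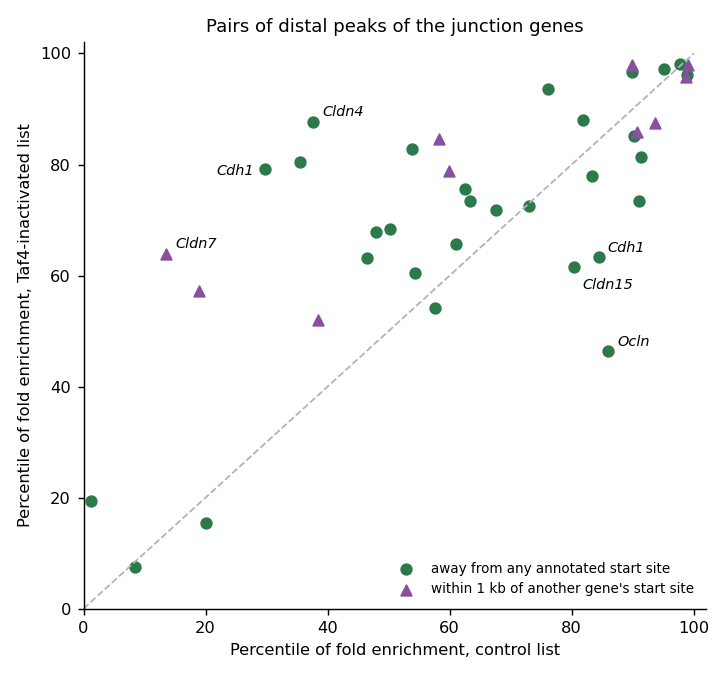
The 40 pairs of overlapping distal peaks of the junction genes, by percentile of fold in the control list (horizontal) and the Taf4-inactivated list (vertical), with the line of equal rank dashed. Triangles mark the 10 pairs within 1 kb of the start site of another gene, and the 3 largest differences in each direction carry the name of the junction gene. There were 24 pairs above the line and 16 below it.

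Over 300 bases centred on each distal peak, the AP-1 letters were present in 11 of 55 control peaks, or 20.0%, against 9.67% over distal peaks of all coding genes, and in 10 of 55 Taf4-inactivated peaks, or 18.2%, against 12.5%. GATA letters were present in 18.2% and 20.0%, against 8.45% and 10.5%. The E-box, frequent at the start sites, was present in 30.9% and 27.3% of the distal peaks, against 30.4% and 29.4% over all coding genes. The CCAAT box was present in 32.7% and 43.6%, against 29.2% and 29.7%. The GRHL letters were found in 1 control and 2 Taf4-inactivated distal peaks, against 3.86% and 4.35% over all coding genes. HNF4 and HNF1 letters were found in 0 of either list. They are rare over all coding genes too, at 0.776% and 1.55% for HNF4 and 0.536% and 0.875% for HNF1. Most peaks entered both counts, since partners cover the same DNA.

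Other junction genes were read in the same way from lists of 49 genes. Of these, 40 carried a start site peak in each list, 4 in control alone (Cldn5, Cldn13, Cldn14 and Cldn22), 1 in Taf4-inactivated enteroids alone (Tjp3, which encodes the adaptor ZO-3) and 4 in neither (Cldn6, Cldn16, Cldn20 and Cdh5). Over coding genes, 14014 of 22367 carried one in each list. The peaks found in 1 list alone ranked low by fold, at percentiles of 5.06 to 19.5 for the 4 claudins and 12.2 for Tjp3. By pileup Tjp3 stood at the 96.5th percentile and the claudins at 67.3 or below. The start site peak ranked higher after Taf4 inactivation in 6 and lower in 34 of the 40, with a median of −6.10 points, beside the 34.2% of coding genes that ranked higher. By pileup rank 14 of the 40 were higher, near the 37.6% of coding genes, with a median of −1.92 points. The other claudins numbered 16. The 9 with a peak in each list all ranked lower by fold, with a median of −14.2 points. By pileup 7 of the 9 were lower, with a median of −14.6 points, and Cldn10 and Cldn12 were at 4.11 and 1.42. By fold their median percentile was 67.3 in control and 35.1 after Taf4 inactivation. The largest of these differences were −44.5 points for Cldn1, a barrier claudin of many epithelia, −42.6 for Cldn18, known from stomach and lung, and −32.4 for Cldn11, known from myelin and testis, and by pileup rank they were −33.5, −23.9 and −14.6. Among adaptors and other membrane proteins of the tight junction 5 of 14 ranked higher, with a median of −2.16 points, and Marveld3 was at −28.4. By pileup 7 of the 14 were higher, and Marveld3 was at −8.21. Among adherens junction genes 1 of 11 ranked higher, with a median of −7.85 points and Pvrl1, which encodes a nectin, at −33.0. By pileup 5 of the 11 were higher, and Pvrl1 was at −8.03. All 6 desmosome genes ranked lower, by a median of −7.62 points, and Dsp, which encodes desmoplakin, was at −30.3. By pileup these 6 were also lower, with Dsp at −6.52.

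**Figure D4:**
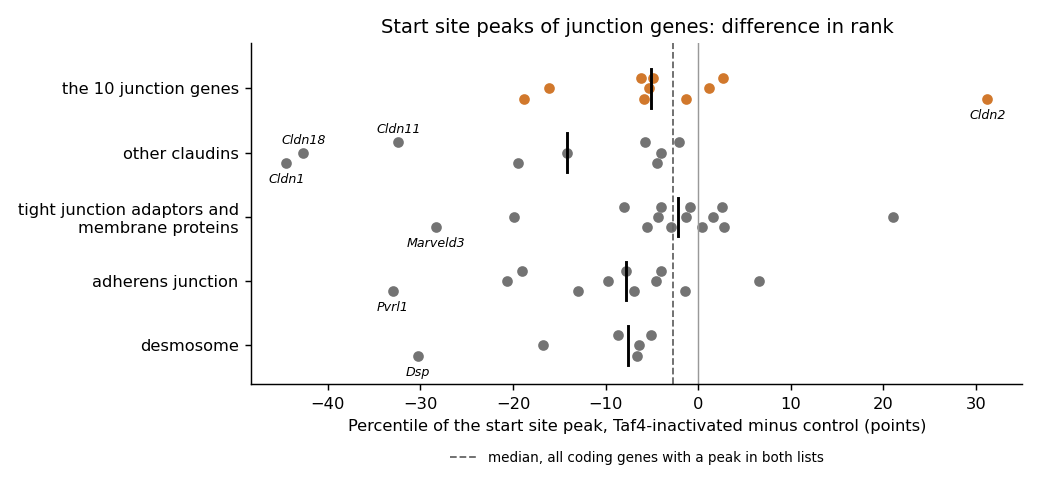
Difference in percentile of the start site peak, Taf4-inactivated minus control, in points, for the 10 junction genes and 4 lists of other junction genes. Each point is a gene with a start site peak in both lists, black bars are the medians of the lists, the dashed line is the median over coding genes, −2.77 points, and genes at 25 points or more are named. Cldn2, at 31.2 points, is the only gene of these lists beyond 25 points upward, and 6 of the other genes lie beyond 25 points downward by fold, of which Cldn1 alone does so by pileup.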

How the data were processed

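Peaks called from ATAC-seq of 2 enteroid libraries, 1 per genotype, were grouped by the genotype in the labels. According to the methods of the study and the submitters' processing notes, reads were demultiplexed with bcl2fastq 2.17.1.14, mapped to mm9 with Bowtie 1.0.0 keeping unique alignments, and broad peaks were called per library with MACS2 2.1.1, reads extended to 200 bp. Treatment of duplicates is not given in the sources used here. The deposited score is the whole part of 10 times −log10 q. The authors' fold is a ratio of the pileup to the local background of that library, and the deposited −log10 p and −log10 q are averages over the peak, with a lowest −log10 q of 1.01 in control and 1.00 in Taf4-inactivated enteroids. Read totals were not used here.

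Peaks were assigned with the GENCODE annotation of the same build, by any transcript start. Each gene was read by its start site peak of highest fold. Differences are of the percentile of fold within a list. Background was solved from fold (pseudocount 1) and Poisson p, and its lowest level is the 5th percentile among the 10% narrowest peaks. Overlap, pairing and the solving of background were tested on simulated data, and 0 of 8 steps were off by over 2%. The simulated fold and p came from the same formula that was then solved, with a single pileup and background per peak. Since the deposited −log10 p is an average over a broad peak, the error of the solved pileups in these data was not tested. Sequences came from the mm9 genome. Intervals are exact Clopper-Pearson and cover counting error only. Python 3.11.15, numpy 2.4.6, pandas 2.3.3, scipy 1.17.1 and matplotlib 3.10.9 were used.

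The genes named were the 10 junction genes, other junction genes lacking a start site peak or differing by 25 points or more, and, among distal peaks, the highest fold per gene, the 5 highest without a partner per list and the 3 largest rank differences of pairs in each direction. The genes, lists and rules were chosen with earlier results of these data known. Printed sequences were chosen after the values were seen. Alternatives changed the ranking value, start sites, windows, q threshold and overlap.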

Additional observations from a re-analysis of the deposited data

How the results depend on the processing

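No paired analysis was possible because each genotype had a single library, and no library could be left out either. Of 121 recomputed values, 38 of those on comparisons were classed as the same, 20 as moved and 3 as reversed, and of those on single genes 18, 30 and 12. Being classed as the same allowed some change. Start site peaks in control, 10 and 7 at a −log10 q of 5, and distal control peaks, 55 and 38 at 2, were so classed. The cause of the changes was not tested. A start site peak was present at 9 of the 10 genes in control at a −log10 q of 2, all but Cldn2, and at 7 at 5. It was present at 10 under the other distances and start sites, while the Taf4-inactivated list had 10 under each. The shares of coding genes at these thresholds are not given here. The control list thinned more at 5, where distal peaks of all coding genes went from 61431 to 6294 in control and from 48483 to 13666 in Taf4-inactivated enteroids. The median difference of start site ranks, −5.14 points, was −1.63 by −log10 p, 0.77 by pileup, −0.19 by width and 0.40 among start site peaks of coding genes, and 3 genes ranking higher became 5 by pileup, 5 by width and 5 among start site peaks. Over coding genes these settings gave 37.6%, 60.3% and 47.6% higher, with medians of −1.42, 1.56 and −0.69. Cldn15, at −1.31 points, reversed to 13.7 by −log10 p, 14.5 by pileup, 71.0 by width and 21.8 with coding starts alone. Cdh17 reversed to 16.6 by pileup and 2.75 among start site peaks, and Cldn3 to 1.81 among start site peaks. By width Cldn7 reversed to −0.79, Ocln to 1.70, Tjp1 to 6.14, Cdh1 to −14.1 and Epcam to 2.15. Cldn2 was higher under each ranking, though by 0.41 points only by width.

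Distal peaks numbered 35 in control with windows of 10 kb, 104 and 103 in control and Taf4-inactivated enteroids with 50 kb, and 13 and 32 where −log10 q had to reach 5. The difference in percent without a partner, Taf4-inactivated minus control, was 1.82, and became 10.2 with 10 kb, −0.73 with 50 kb, 20.1 at a −log10 q of 2 and 54.8 at 5 in both lists, where the thresholds left unequal lists (38 and 49 peaks, 13 and 32) and the values depend in part on these lengths. Control peaks without a partner were then 10.5% at a −log10 q of 2 and 7.69% at 5, and Taf4-inactivated ones 62.5% at 5. Where peaks at 5 were compared with the whole other list, the shares were 7.69% and 9.38%, a difference of 1.68, beside 1.22% and 13.0% over all coding genes. Requiring 50% overlap of both peaks gave 43.6% and 43.6%, beside 71.2% and 63.5% over all coding genes. Read depth was not measured, and 1 library per genotype gives no spread.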

Other observations

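The Villin gene Vil1, whose promoter drives the Cre, had a start site peak at the 94.0th percentile in control and the 75.1st in Taf4-inactivated enteroids, and Cdx2, an intestinal transcription factor, one at the 91.8th and 94.6th. By pileup rank both directions were the opposite, 97.9 and 99.9 for Vil1 and 98.8 and 86.3 for Cdx2. The pileup at Vil1 was 5.21 and 15.6. The Cre transgene with its Villin promoter was present in the Taf4-inactivated enteroids alone, and its part in the Vil1 values was not tested. Lgr5, known from crypt stem cells, and Cdx1 stood at −16.9 and −9.07 points, and were also lower by pileup. Fabp2 and Krt20, both genes of differentiated intestinal epithelium, had start site peaks at the 71.1st and 59.8th percentiles of the Taf4-inactivated list and none in control. Ctnnb1 and Crb3 were among the 6 other junction genes that ranked higher after Taf4 inactivation, by 6.61 and 21.1 points (0.15 and 0.59 by pileup rank), and were picked out after their values were seen. The part of culture composition in these values was not tested.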
